A study of Arabidopsis thaliana with 4 samples.

Results

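AAF, the gene raised in the AAF-OX line, was examined together with 5 genes of leaf senescence, SAG12, SAG101, WRKY53, WRKY6 and WRKY22. The 6 genes were taken by name, each through 1 probe set, out of 22746 probe sets that are not controls. RNA of rosette leaves from Arabidopsis thaliana aged 3 weeks, kept in 16 h light and 8 h dark, was compared between AAF-OX, which overexpresses AAF in the Col-0 background (2 arrays), and wild-type Col-0 (2 arrays). The promoter that drives AAF and the number of transformed lines are not given in the sources used here. According to the series' design 2 sets of arrays were run, and same-numbered arrays were taken as 1 pair, so that set 1 and set 2 each hold 1 AAF-OX and 1 Col-0 array. The labels do not state that number 1 of each genotype shares a set, nor that the 2 sets were grown apart, so a p-value here covers the spread among 4 arrays only, and part of that spread may be technical.

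Leaf senescence is the ordered dismantling of an ageing leaf, in which chlorophyll and protein are broken down and nitrogen and carbon are exported to growing parts. Transcription factors of the WRKY and NAC families switch on senescence-associated genes (SAGs), and ethylene, salicylic acid and reactive oxygen feed into them. SAG12, a cysteine protease gene that is switched on late and with age, is a standard marker of the process, and SAG101 codes for a lipase-like protein that also acts with EDS1 in immunity.

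The sequences of these genes are not shown here, and no genome coordinates are given, since no build is named for the probes. AAF (AT1G66330) and WRKY6 (AT1G62300) are genes of chromosome 1. WRKY53 (AT4G23810) and WRKY22 (AT4G01250) are genes of chromosome 4, and SAG101 (AT5G14930) is one of chromosome 5. SAG12 (AT5G45890, also on chromosome 5) was read from a probe set for which the platform's gene table lists no gene. Its identity as SAG12 comes from the rule that chose the genes. For the probe set of AAF the gene table lists AT1G66330, and only the name AAF comes from that rule.

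AAF and SAG12 were higher in AAF-OX leaves than in Col-0 leaves in both sets, and the tests of SAG101, WRKY53, WRKY6 and WRKY22 did not pass the threshold. With the set as a block, limma's adjusted p was under 0.05 for 2 of the 6 genes, where 1.55% of all 13592 tested probe sets passed (1.34% higher and 0.206% lower in AAF-OX). The design fixed the call of AAF, the overexpressed gene. SAG12 reached the minimum mean signal for testing only through its AAF-OX arrays. The 2 of 6 can therefore not be read as an excess over that share. On simulated data the fit with the block made more false calls than its threshold allows for, so an adjusted p under 0.05 is not held to that error rate here. Without the block 0 of the 6 passed, and so did 0 of all tested probe sets (limma; adjusted p = 1 for each of the 6). At an unadjusted p under 0.05 that fit had 117 of the 13592 tested probe sets, AAF and SAG12 among them.

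AAF, which belongs to a plant family annotated as senescence-associated, had signals of 7442.5 (set 1) and 7705.8 (set 2) on the AAF-OX arrays, against 759.9 and 1336.7 on the Col-0 arrays. Both AAF-OX arrays lay far above both Col-0 arrays, and they were close to each other. The means were 7574.2 ± 186.2 in AAF-OX and 1048.3 ± 407.9 in Col-0 (SD, n = 2 each). On the scale of log2(signal + 50) the difference was 2.85 ± 0.15 (SE), with 3.21 in set 1 and 2.48 in set 2, a 7.19-fold difference of signal plus 50 (limma's adjusted p = 2.53e-06). The level of AAF thus varied between sets in Col-0 (0.78 on the log2 scale, set 2 minus set 1) and hardly in AAF-OX (0.05). Transcripts of the transgene and of the native gene cannot be told apart by this probe set.

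SAG12 had signals of 491.7 (set 1) and 163.2 (set 2) in AAF-OX, against 40.1 and 3.1 in Col-0. The groups did not overlap, and both Col-0 signals lay in the dim range, where 30.1% to 31.4% of all signals of an array are under 50. The means were 327.5 ± 232.3 in AAF-OX and 21.6 ± 26.2 in Col-0 (SD, n = 2 each). The log2 difference was 2.30 ± 0.23 (SE), with 2.59 in set 1 and 2.01 in set 2, or 4.91-fold on the scale of signal plus 50 (limma's adjusted p = 0.000389). SAG12 met the minimum mean signal of 100 only through its AAF-OX arrays, so its passing that filter is tied to the difference. With no filter its call was kept (limma's adjusted p = 0.0417). The size depends on the pseudocount, and it was 1.72 with 100 added and 4.45 with 1 added to each signal. Without the block the unadjusted p was 0.0111 for SAG12 and 0.000512 for AAF (limma; adjusted p = 1 for both).

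The groups did not overlap for 2 of the 6 genes, SAG12 and AAF, of which AAF is the overexpressed gene. Over all tested probe sets they did not overlap for 18.7% (7.86% with AAF-OX above Col-0).

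**Figure D1:**
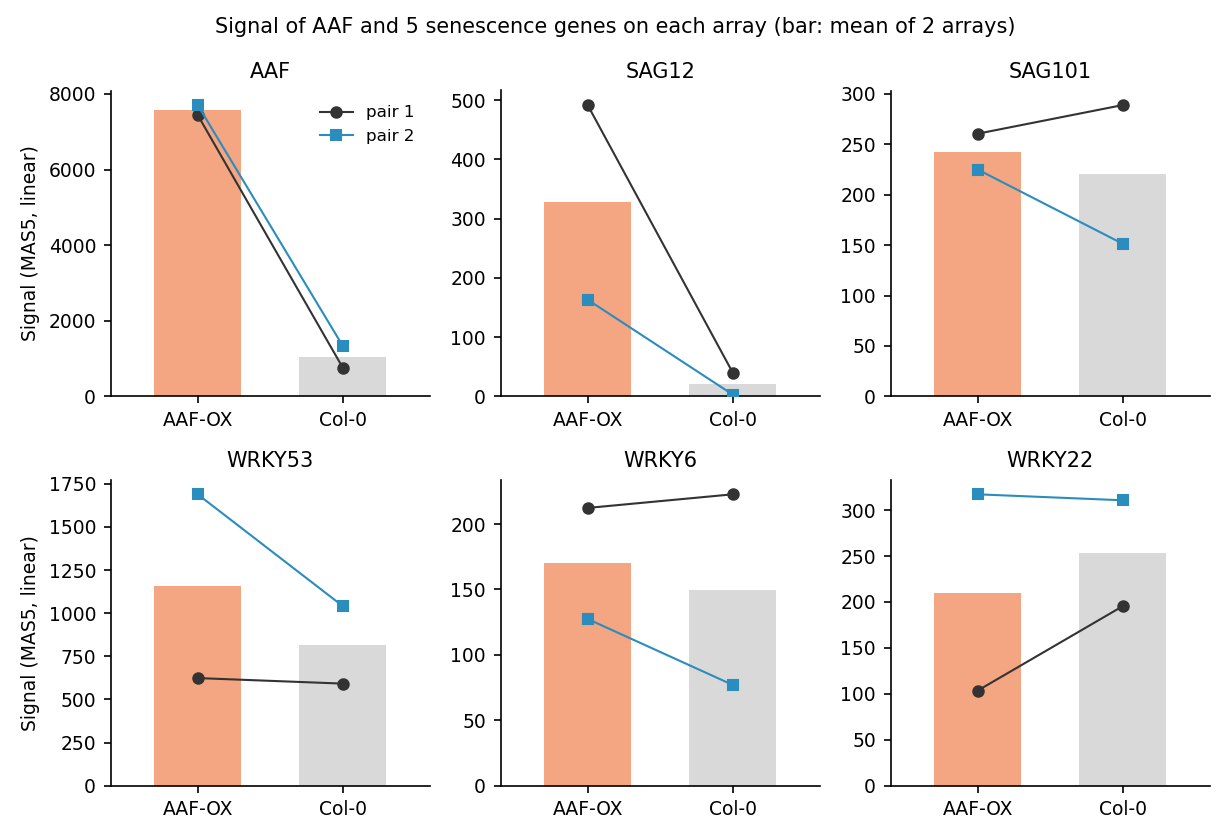
Signal (MAS5, linear scale, each axis from 0) of each gene in AAF-OX and Col-0. Bars are means of 2 arrays, points are single arrays, and lines join the arrays of set 1 (circles, pair 1) and set 2 (squares, pair 2). AAF and SAG12 are higher in AAF-OX on both lines, and for WRKY53 and WRKY22 the line of set 2 lies above that of set 1.

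SAG101 had signals of 260.5 and 225.0 in AAF-OX and 288.9 and 151.4 in Col-0, in set 1 and set 2 order. Both AAF-OX values lay between the Col-0 values. The log2 difference was 0.16 ± 0.18 (SE), with -0.13 in set 1 and 0.45 in set 2 (limma's adjusted p = 0.849). Its 95% interval of -0.24 to 0.56, which may be too narrow, leaves room for a difference either way.

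WRKY53, a transcription factor gene that promotes early leaf senescence, had 623.7 and 1688.9 in AAF-OX and 591.6 and 1040.9 in Col-0. The AAF-OX array was higher in each set, by 0.07 and 0.67 on the log2 scale, but the groups overlapped because set 2 was higher in both genotypes. The difference was 0.37 ± 0.15 (SE), with a 95% interval of 0.04 to 0.70, and it did not pass over all tested probe sets (limma; unadjusted p = 0.031, adjusted p = 0.366).

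WRKY6, a transcription factor gene tied to senescence and defence, had 212.3 and 127.4 in AAF-OX and 222.7 and 77.0 in Col-0. Here the arrays of set 1 were the higher ones in both genotypes. The log2 difference was 0.21 ± 0.20 (SE), with -0.06 in set 1 and 0.48 in set 2 and a 95% interval of -0.23 to 0.65 (limma's adjusted p = 0.815).

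WRKY22, a transcription factor gene of dark-induced senescence and of defence signalling, had 103.5 and 317.2 in AAF-OX and 195.4 and 310.7 in Col-0. The AAF-OX array was the lowest of all in set 1, and the arrays of set 2 were nearly equal. The log2 difference was -0.33 ± 0.19 (SE), with -0.68 in set 1 and 0.03 in set 2 and a 95% interval of -0.75 to 0.10 (limma's adjusted p = 0.622).

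The difference of set 2 exceeded that of set 1 in each of the 4 genes that did not pass, by 0.58 for SAG101, 0.60 for WRKY53, 0.54 for WRKY6 and 0.70 for WRKY22. For AAF and SAG12 it was smaller, by -0.73 and -0.58. Over all tested probe sets the median of this quantity was 0.00, with a range of -0.53 to 0.59 from the 5th to the 95th percentile, and 6.33% had a value at least as high as WRKY6. With 1 array per genotype and set, a difference between the sets' responses could not be tested. SAG101, WRKY6 and WRKY22 had opposite signs in the sets, as did 44.3% of all tested probe sets.

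**Figure D2:**
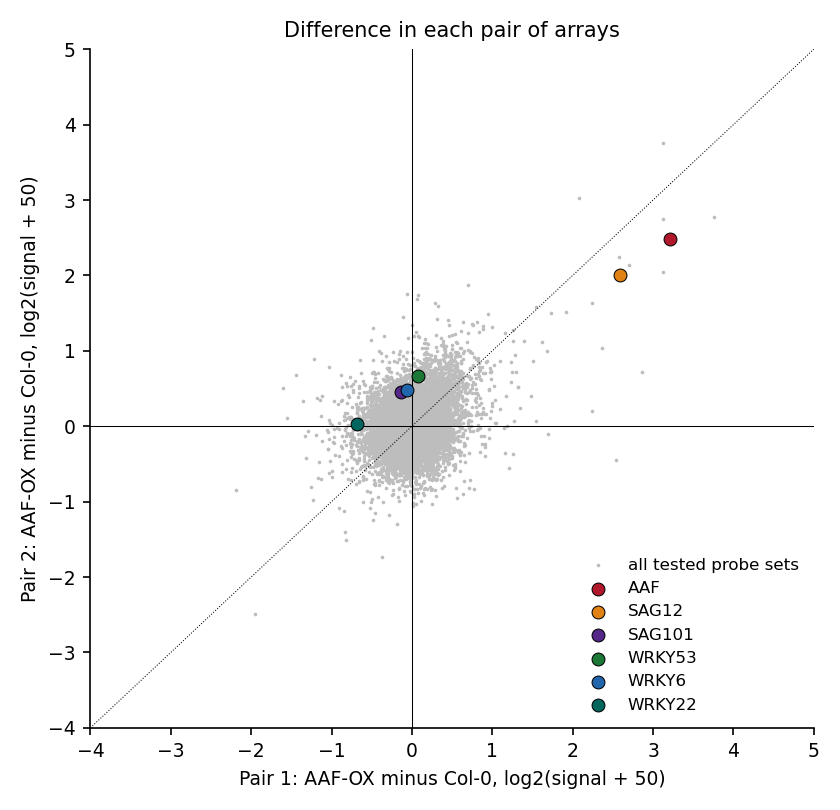
AAF-OX minus Col-0 in log2(signal + 50), in set 1 (pair 1, horizontal axis) and in set 2 (pair 2, vertical axis), for 13592 tested probe sets (grey) and the 6 genes (colours). The dotted line marks equal differences. AAF (3.21, 2.48) and SAG12 (2.59, 2.01) lie at the upper right, away from most probe sets, and the other 4 genes lie above the dotted line at the edge of the central cloud.

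Most of these genes differed between the sets, as paired by replicate number, and in different directions. In the fit with a genotype term, 5 of the 6 passed between set 2 and set 1 (limma's adjusted p under 0.05), where 39.4% of all tested probe sets did (17.3% higher and 22.0% lower in set 2). WRKY53 was higher in set 2 by a log2 of 1.07 ± 0.15 (SE; limma's adjusted p = 0.000183), with 1.37 in AAF-OX and 0.77 in Col-0. WRKY22 was higher by 0.91 ± 0.19 (adjusted p = 0.00308), with 1.26 in AAF-OX and 0.56 in Col-0. SAG12 was lower in set 2, at -1.05 ± 0.23 (adjusted p = 0.00308), with -1.35 in AAF-OX and -0.76 in Col-0. The Col-0 part rests on dim signals of 40.1 and 3.1. The set difference of SAG12 depends on the pseudocount, at -2.45 with 1 added and -0.81 with 100 added.

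WRKY6 was also lower in set 2, at -0.83 ± 0.20 (adjusted p = 0.00634), with -0.56 in AAF-OX and -1.10 in Col-0. SAG101 had -0.46 ± 0.18 and did not pass (adjusted p = 0.0643). AAF passed narrowly at 0.41 ± 0.15 (adjusted p = 0.047), a call lost in 5 of the 8 alternatives that kept all 4 arrays. Between the sets, SAG12 and WRKY6 thus went one way and WRKY53 and WRKY22 the other.

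**Figure D3:**
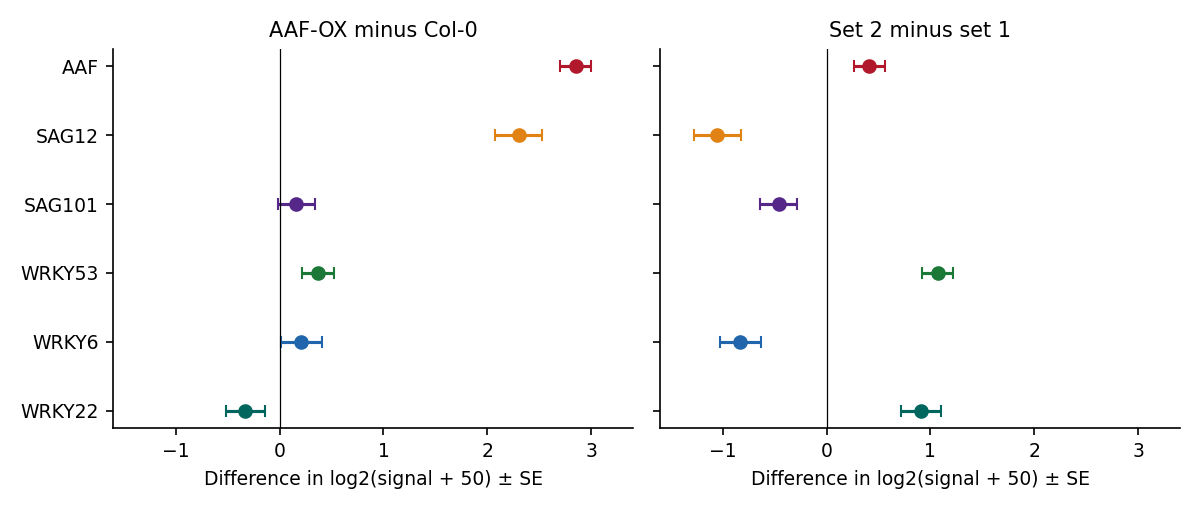
Difference in log2(signal + 50) for each gene, AAF-OX minus Col-0 on the left and set 2 minus set 1 on the right, from 1 fit with both terms. Points are estimates and bars are ± 1 SE. AAF and SAG12 are displaced on the left (2.85 and 2.30), and on the right WRKY53 and WRKY22 stand above 0 while SAG12 and WRKY6 stand below it.

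Other genes of the process were read from lists of known loci, but the platform's gene table named few of them. Of 72 WRKY genes it named 7, and 6 were tested. None of the 6 passed between genotypes (limma; WRKY53 alone at an unadjusted p under 0.05, where 11.0% of all tested probe sets were, and 0 of the 6 without the block), and their median log2 difference was 0.19, against -0.02 over all tested probe sets. Besides the 3 described above, WRKY47 had 0.23 (adjusted p = 0.716), WRKY20 0.16 (adjusted p = 0.766) and WRKY1 -0.02 (adjusted p = 0.989). WRKY20 had signals of 591.0 and 606.5 in AAF-OX and 537.5 and 520.6 in Col-0, with both AAF-OX arrays above both Col-0 arrays. WRKY42, a close relative of WRKY6, was too dim to test, at 4.0 and 4.1 in AAF-OX and 13.5 and 7.2 in Col-0.

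Of 42 senescence regulators 4 were tested, the 3 WRKY genes and EIN3, the transcription factor of ethylene signalling. EIN3 had 1879.0 and 1538.7 in AAF-OX and 1682.7 and 1781.5 in Col-0, a log2 difference of -0.03 (adjusted p = 0.98). The signs of its differences were opposite in the sets (0.15 and -0.21), and 0 of the 4 regulators passed (limma; WRKY53 alone at an unadjusted p under 0.05, against 11.0% of all tested probe sets).

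Of 26 senescence-associated and recycling genes, 4 were named and 3 tested. The single one that passed was AAF, the gene overexpressed in AAF-OX, so the design fixed that call. Of all tested probe sets 1.55% passed. SAG12 is not counted here, because the gene table does not name its probe set. PPDK, pyruvate orthophosphate dikinase, which takes part in exporting nitrogen from ageing leaves, had 914.0 and 666.4 in AAF-OX and 818.2 and 319.4 in Col-0. Its log2 difference was 0.55 ± 0.18 (SE), with 0.15 in set 1 and 0.96 in set 2, and did not pass (limma; unadjusted p = 0.00844, adjusted p = 0.186). SAG29, a sugar transporter gene of the SWEET family that is active late in senescence, was too dim to test, at 44.6 and 4.4 in AAF-OX and 8.7 and 8.6 in Col-0. Its AAF-OX array was the brighter one in set 1 and the dimmer one in set 2.

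The 2 of 12 chlorophyll breakdown genes that were tested did not pass. NOL, which codes for a subunit of chlorophyll b reductase, had 677.5 and 973.8 in AAF-OX and 602.1 and 788.5 in Col-0 (log2 0.22, adjusted p = 0.606). SGRL, a relative of the stay-green genes, had 1996.1 and 3484.7 in AAF-OX and 2196.6 and 2874.5 in Col-0 (log2 0.07, adjusted p = 0.921). Of 9 genes for SAG101 and its partners in EDS1 signalling, 2 were tested and did not pass, and neither this list nor that of chlorophyll breakdown had a gene at an unadjusted p under 0.05 (limma). The 2 were SAG101 itself and AT3G48080, an EDS1 gene with a near-identical neighbour whose transcripts the probe set may also bind. AT3G48080, listed as EDS1B, had 432.1 and 114.5 in AAF-OX and 360.6 and 80.4 in Col-0 (log2 0.28, adjusted p = 0.619).

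**Figure D4:**
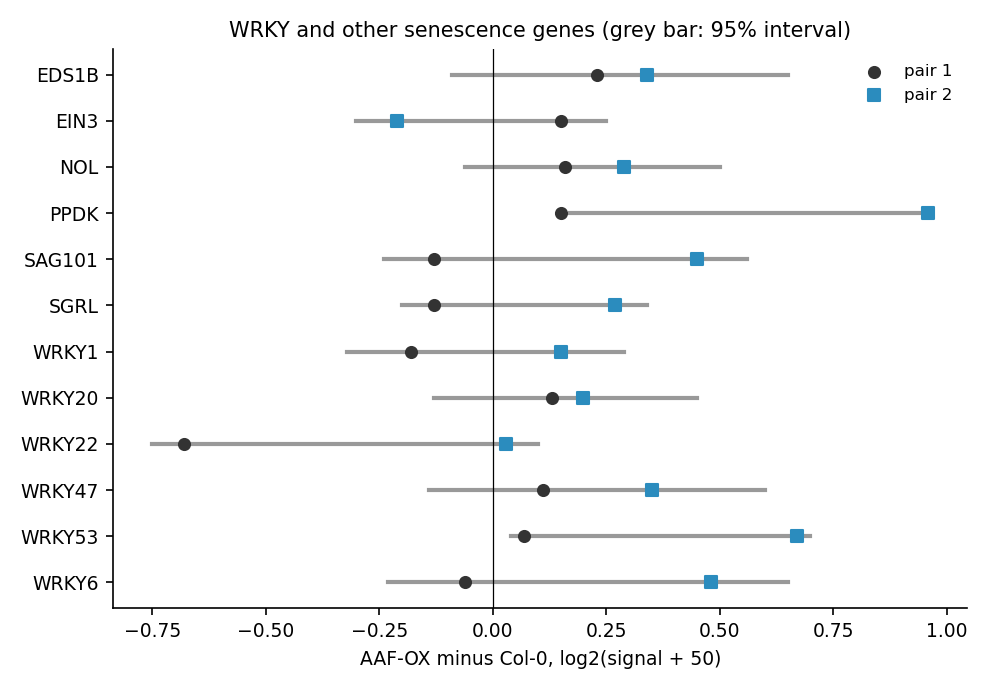
AAF-OX minus Col-0 in log2(signal + 50) for the tested WRKY and other senescence genes apart from AAF and SAG12. Circles are set 1 (pair 1), squares set 2 (pair 2), and grey bars the 95% interval of the fit with the set as a block. The intervals of PPDK (0.17 to 0.94) and WRKY53 (0.04 to 0.70) lie above 0 before adjustment, and none of the genes passed after it.

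Tested and named probe sets were ranked by the likeness of their profile over the 4 arrays to that of AAF, as the root mean square distance of log2(signal + 50) values centred on their own means. The nearest were AT4G23680 (0.77), AT1G66850 (0.88), AT3G28500 (0.91), AT4G15680 (0.93) and AT1G10410 (0.94). SAG12 lay at 0.78, with 6 of all tested probe sets nearer to AAF. AT4G23680, of a family related to major latex proteins, had 311.0 and 254.5 in AAF-OX and 67.2 and 90.9 in Col-0. Like SAG12 it met the minimum mean signal for testing only through its AAF-OX arrays (means of 282.7 in AAF-OX and 79.0 in Col-0). Its passing that filter is thus tied to the difference. It passed between genotypes (limma's adjusted p = 0.006), and with no filter the call was lost (limma's adjusted p = 0.147). AT3G28500, of an acidic ribosomal protein family, had 1193.2 and 1274.7 in AAF-OX and 479.9 and 685.2 in Col-0 (log2 1.04, limma's adjusted p = 0.00398). This call too was lost with no filter (limma's adjusted p = 0.0718). AT1G66850 had log2 differences of 2.25 in set 1 and 0.20 in set 2 and did not pass (adjusted p = 0.161). It too met the minimum mean signal only through its AAF-OX arrays (means of 173.1 in AAF-OX and 55.0 in Col-0). SAG101, WRKY53, WRKY6 and WRKY22 lay at 1.45, 1.32, 1.49 and 1.64. With 4 arrays this ranking reflects mainly the size of the genotype difference, so a small p of a gene it names follows in part from the choice.

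Leaf identity was checked with markers. The 4 tested of 10 mesophyll genes, RCA, LHCB4.1, LHCB4.2 and PRK, had signals from 12654.6 to 31589.6 on the 4 arrays, and 0 passed between genotypes (median log2 difference -0.14, 1 of the 4 at an unadjusted p under 0.05 in limma, against 11.0% of all tested probe sets). Of 8 root genes 3 were named and 2 tested. PYK10 had 628.9 and 1527.1 in AAF-OX and 1075.3 and 1973.7 in Col-0, and NAI2 had 210.5 and 191.6 in AAF-OX and 339.8 and 312.0 in Col-0. Both were lower in AAF-OX in each set. Against 11.0% of all tested probe sets, 2 of the 2 were at an unadjusted p under 0.05 (limma; 0.00135 for PYK10 and 0.00312 for NAI2). Their log2 differences of -0.54 and -0.58 did not pass over all tested probe sets (limma; adjusted p = 0.0679 and 0.108). The root hair gene EXP7 went the other way but was dim, at 19.9 and 49.4 in AAF-OX and 4.6 and 7.6 in Col-0. The part of such differences in the values of AAF and SAG12 was not tested. PYK10 and NAI2 are both ER body genes, so they do not serve as 2 separate root markers. Whether root tissue was present was not tested. None of 6 flower genes was named, so floral tissue was not examined. A change of transcript per cell and a change in the share of cells that express a gene cannot be told apart in whole leaves.

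**Figure D5:**
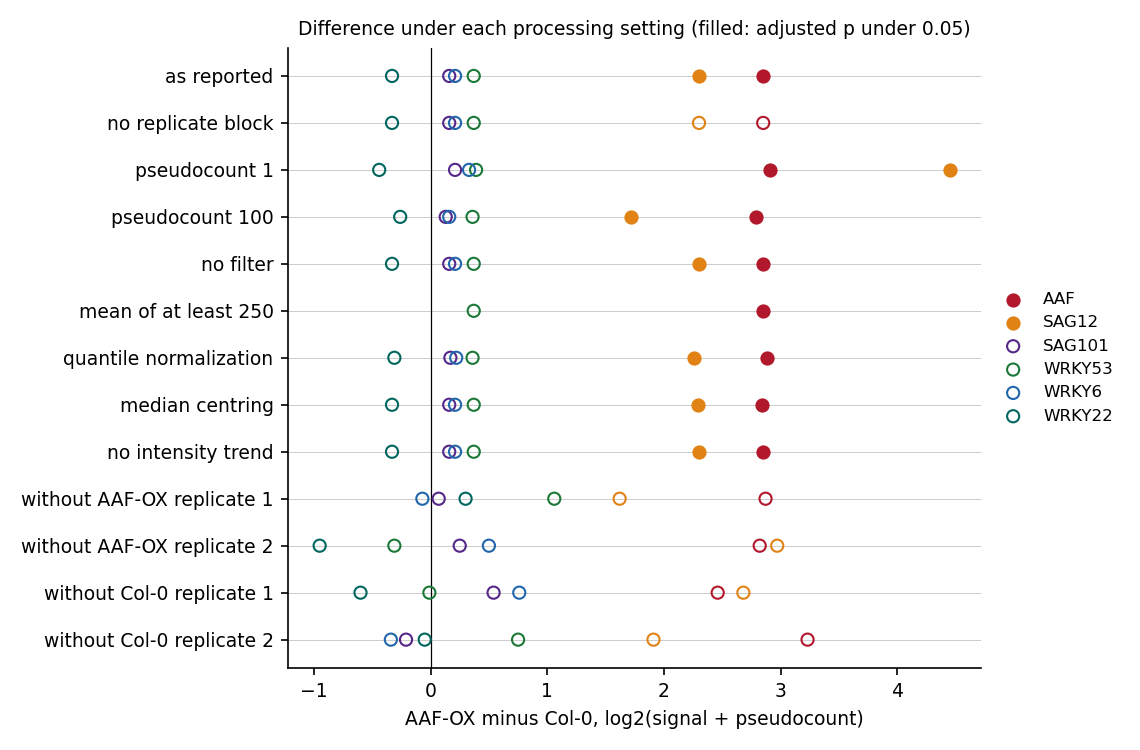
AAF-OX minus Col-0 for each gene under every processing setting, on the scale of log2(signal + pseudocount). Filled circles passed limma's adjusted p of 0.05 and open ones did not, and a gene without a circle was below the filter. AAF stays between 2.46 and 3.23 and SAG12 between 1.62 and 4.45, while the other genes change sign when single arrays are left out.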

How the data were processed

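Biotin-labelled total RNA was hybridised to Affymetrix arrays, per the labels' protocols. The deposited values are intensity values, linear MAS5 signals by the submitters' processing notes (no version is named), each array with a 2%-trimmed mean of 500.04 or 500.05. Detection calls were not used here. The number of arrays, 2 per group, limits the precision.

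Control probe sets (64 of 22810) were left out, 50 was added before log2, and a mean signal of at least 100 was required (13592 tested, 9154 left out). Differences were fitted with limma 3.58.1 under R 4.3.3 (functions lmFit, then eBayes with trend; two-sided p, Benjamini-Hochberg adjustment over all tested probe sets, threshold 0.05), with genotype and set as terms. This leaves 1 residual degree of freedom, and 10.7 are borrowed across probe sets, so an SE can be smaller than the disagreement between the sets. The labels do not state which arrays share a set. The pairing by replicate number rests on the rule for these genes and on the 2 sets that the series' design names, and all 210 calls depend on it. The deviations of arrays with the same number from the group mean correlated at 0.856. Tested on simulated data, the fit with the block made more false calls than the threshold of 0.05 allows for. The adjusted p-values of that fit may therefore be too small. How often the fit misses small differences is not given here. The comparison between sets was not simulated.

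Gene names came from the table of the platform (13513 probe sets with 1 gene, 503 with several, 8730 with none), of which 13436 matched a TAIR10.1 locus. Of several probe sets per gene the brightest was used. Named were the 6 genes, the called and the 3 brightest tested genes of each list, and the 5 profiles nearest to AAF. Other listed and marker genes (WRKY42, SAG29, WRKY47 and the markers) are outside this rule and were chosen after their values were seen. Members and lists were chosen with earlier results of these data known. Alternatives were other pseudocounts (1, 100), filters (none, 250), scalings, no trend, no block and each array left out.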

Additional observations from a re-analysis of the deposited data

How the results depend on the processing

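Without the replicate block the calls of AAF (2.85) and SAG12 (2.30) were lost at the same log2 difference. All 210 calls (182 higher, 28 lower) were lost as well and became 0 (0 higher, 0 lower). The list of senescence-associated and recycling genes had 0 called genes in place of 1, which was AAF, the overexpressed gene. In the 7 alternatives with the block AAF passed throughout (2.79 to 2.91, limma's adjusted p from 3.66e-11 to 0.00468), and SAG12 passed in all 6 that kept it (1.72 to 4.45, adjusted p from 2.94e-06 to 0.0417). A minimum mean of 250 left SAG12, SAG101, WRKY6 and WRKY22 untested. SAG101, WRKY53, WRKY6 and WRKY22 passed in none of the alternatives. The number of calls was 76 (63 higher, 13 lower) with a pseudocount of 1, 18 (15 and 3) without the filter, 373 (316 and 57) with median centring and 21 (19 and 2) without the intensity trend. The cause of these changes was not tested.

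With 1 array left out, only genotype was fitted, the lone array was taken to vary as the other group does, and set differences mix into the values. These ran from 2.46 to 3.23 for AAF, 1.62 to 2.97 for SAG12, -0.21 to 0.54 for SAG101, -0.31 to 1.06 for WRKY53, -0.34 to 0.76 for WRKY6 and -0.95 to 0.30 for WRKY22, with 0 probe sets and 0 list genes called (limma). The negative values were -0.21 for SAG101 and -0.34 for WRKY6 without Col-0 replicate 2, -0.07 for WRKY6 without AAF-OX replicate 1, and, for WRKY53, -0.31 without AAF-OX replicate 2 and -0.01 when Col-0 replicate 1 was left out. WRKY22 was at 0.30 without AAF-OX replicate 1.

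Between sets, AAF lost its call with no genotype term (0.41), a pseudocount of 1 (0.43), no filter (0.41), quantile normalization (0.37) and no intensity trend (0.41), and SAG12 with no genotype term (-1.05). With 1 array left out and the set alone fitted, the set difference ran from -1.19 to 2.02 for AAF, -2.35 to 0.24 for SAG12, -0.69 to -0.24 for SAG101, 0.73 to 1.40 for WRKY53, -1.07 to -0.59 for WRKY6 and 0.57 to 1.25 for WRKY22. In these fits WRKY53 passed in 4 of 4 and AAF in 0 of 4, and SAG12, WRKY6 and WRKY22 each lost their call between sets in 3 of 4 (limma's adjusted p up to 0.972 for SAG12, 0.0815 for WRKY6 and 0.0905 for WRKY22), and SAG101 gained one without AAF-OX replicate 2 (adjusted p = 0.0382). The sign of AAF turned without AAF-OX replicate 2 (-0.83) and also without Col-0 replicate 1 (-1.19), and that of SAG12 without AAF-OX replicate 1 (0.24). Dim signals limit SAG12, AT1G66850, WRKY42 and SAG29.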
